A study of Mus musculus with 6 samples.

Results

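The Rab genes measured here encode small GTPases of vesicle traffic, and they were followed in mouse leukemia cells with and without a floxed A20 gene. Members were the rows of the count table whose symbol is Rab or Rabl followed by a number, without pseudogene names, and whose level was at least 1 CPM (1 read per 1000000 counted reads of the library) in at least 3 of 6 libraries. Of 24062 genes in the table, 60 had such a symbol and 46 of these reached the level. The cells were lineage-negative hematopoietic cells transduced by retrovirus with the MLL-AF9 oncogene, a fusion found in acute myeloid leukemia. The group labelled A20 WT (3 libraries) came from A20+/+ Rosa Cre-ER mice, and the group labelled A20 KO (3 libraries) from A20f/f Rosa Cre-ER mice, whose floxed alleles the tamoxifen-activated Cre recombinase can delete. Both groups carried MLL-AF9 and the Cre, grew with human IL-6, mouse IL-3 and mouse SCF, and received 1 µM 4-hydroxytamoxifen for 48 h. The series asked what deletion of A20, the ubiquitin-editing enzyme encoded by Tnfaip3, did in these cells. The labels give no age or strain and do not state how replicates were made, so each p-value rests on the spread between these libraries alone, which may be technical.

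Rab proteins switch between a GDP-bound form held in the cytosol and a GTP-bound form on a membrane, where they recruit effectors such as tethers, motors and adaptors. Guanine nucleotide exchange factors (GEFs) load GTP, GTPase-activating proteins (GAPs) with a TBC domain trigger its hydrolysis, and GDP dissociation inhibitors return the protein to the cytosol. Each Rab marks its own set of membranes, and in myeloid cells they direct phagosome maturation, granule release and the building of lysosome-related organelles. Members are described by the compartment for which each is best known.

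The libraries held 16113320 to 25415274 counted reads, and levels below are CPM after TMM scaling, given for replicates 1, 2 and 3 in that order. Tnfaip3, the targeted gene, went against its label, at 7.39, 8.67 and 8.24 CPM under the WT label and 100.1, 74.1 and 79.1 CPM under the KO label. Its log2 fold change was 3.38 (SE 0.17; edgeR quasi-likelihood adjusted p = 4.71e-05). The count covers all exons of the gene and does not measure the deletion, so groups are named by their labels and every direction is KO-labelled relative to WT-labelled. Xist, the RNA of the inactive X chromosome, ranged from 564 to 2109 CPM under the WT label and from 0 to 4.77 CPM under the KO label, and Ddx3y, on chromosome Y, from 0 to 0.80 and from 78.5 to 89.2 CPM, so label and sex of the mice cannot be told apart. Replicate 1 stood apart in both groups: the chi-square per degree of freedom between libraries was 216 and 242 against 26.2 between WT-labelled replicates 2 and 3, and 99.4 and 83.9 against 2.43 between KO-labelled replicates 2 and 3. All 6 pan-hematopoietic (sum 2374 to 2710 and 2598 to 3060.5 CPM, WT label then KO label) and all 10 myeloid marker genes reached 1 CPM (2869.6 to 6366 and 4060.0 to 4797 CPM). Of the myeloid markers, Csf1r and Fcgr3 of monocytes and macrophages were called higher, and Mpo and Ctsg of granulocyte progenitors lower. Cd33 (log2 fold change 1.49), Itgam (0.56), Spi1 (0.34), Cebpa (-0.11), Elane (-0.93) and Lyz2 (-1.13) were not called. Replicate 1 stood apart for Csf1r, with 2.84, 36.2 and 35.3 CPM and then 353, 134 and 134 CPM. WT-labelled replicate 1 was also far below replicates 2 and 3 for Lyz2 (243, 2705 and 1889 CPM) and Cd33 (58.7, 524 and 504 CPM). It was lower too for Itgam (134, 443.5 and 529 CPM) and Fcgr3 (25.7, 109 and 110 CPM). For Mpo it was higher (299, 142 and 158 CPM). The log2 ratio of Lyz2 was 2.07 in replicate 1 and -1.95 in replicates 2 and 3, so its sign changed. The part of these marker differences in the Rab differences was not tested. Sums were at most 2.18 CPM for 6 B cell markers (1 lower), 4.78 CPM for 7 T and NK cell markers (1 higher) and 1.89 CPM for 7 erythroid markers (1 lower), and Cd3e and Hba-a1 had no read. The 8 stromal and endothelial markers (1 higher, 1 lower) summed to 259 to 331 and 64.3 to 107 CPM, nearly all from Pecam1, which leukocytes also express. In bulk RNA, fewer cells of a type and less RNA per cell cannot be told apart.

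Of the 46 Rab genes, 6 rose and 9 fell at an adjusted p under 0.05 in the edgeR quasi-likelihood fit. These 15 made up 32.6% of the members, beside 27.3% of all 12126 genes tested, so the family was called about as often as genes in general. For each direction the share over all genes was 13.7%, and the counts by compartment below are to be read beside these shares. The median log2 fold change of the members was 0.10 and of all genes -0.04, and the median of its size was 0.32 against 0.38. Of the called genes, Rab38, Rab37, Rab17, Rab34, Rab27a, Rab2b and Rab23 were lower and Rab13 and Rab20 higher by at least 2-fold, and the others changed by less. The summed level of the 46 genes ranged from 3805 to 4006.7 CPM under the WT label and from 3799.5 to 4256.5 CPM under the KO label, so the groups overlapped. Groups did not overlap for 28 members (60.9%, against 47.6% of all genes).

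**Figure D1:**
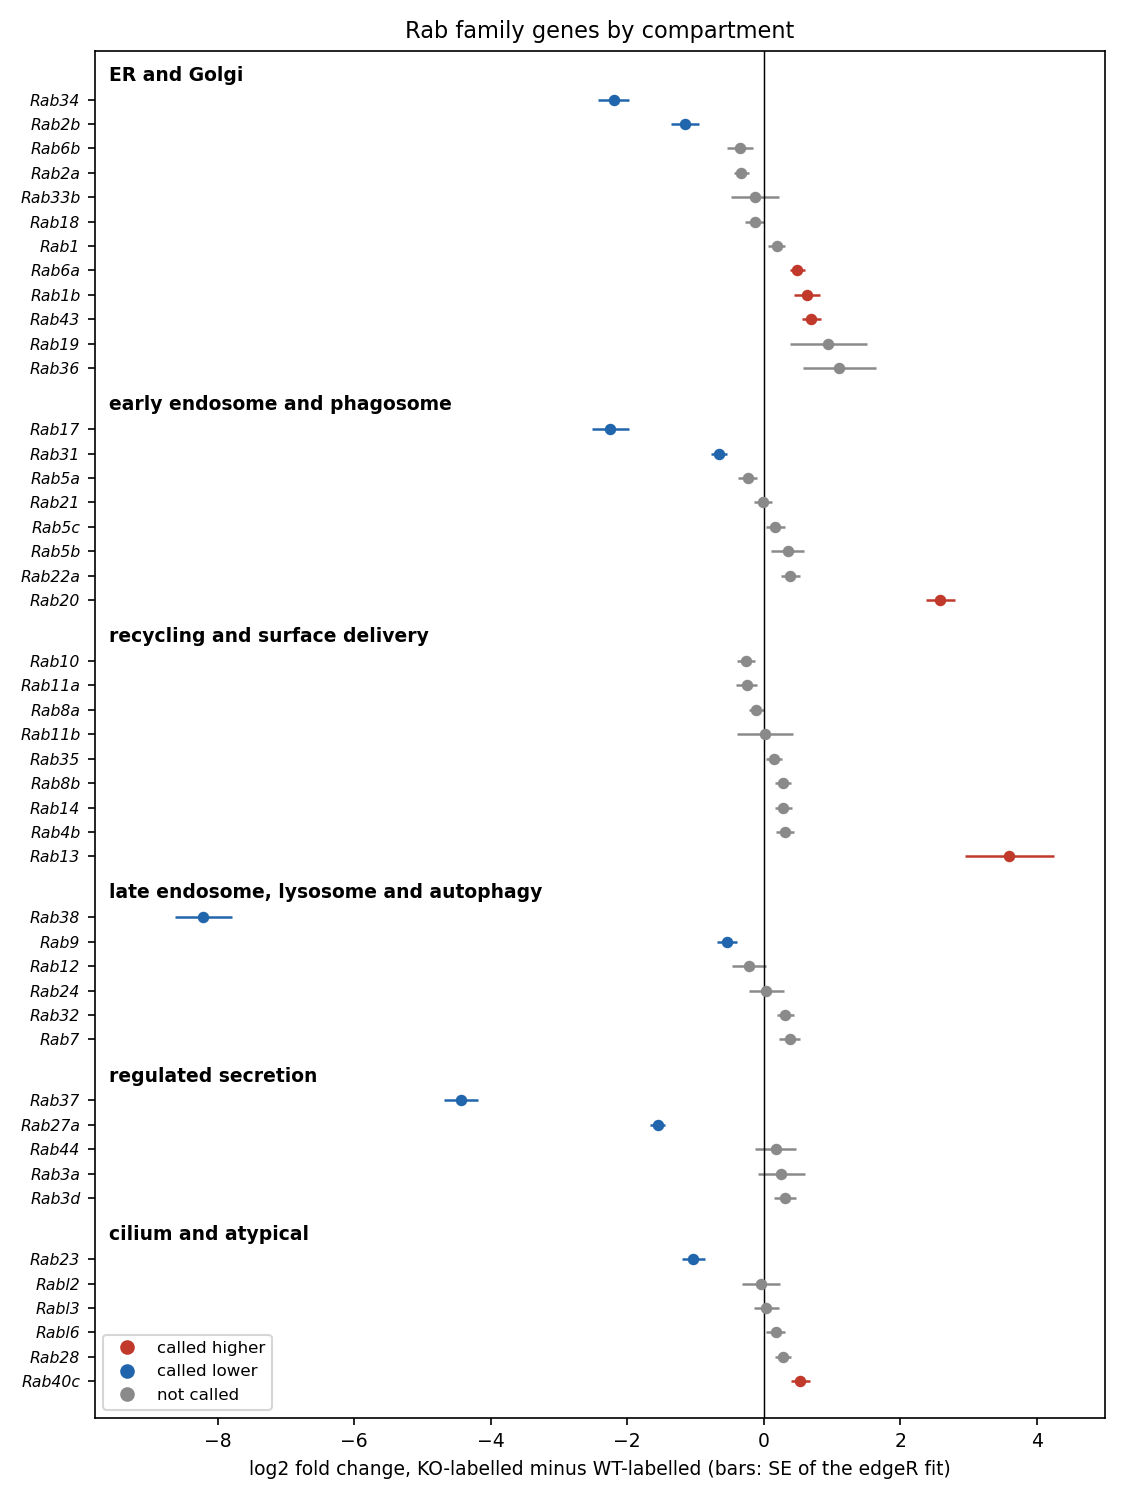
Log2 fold change (x axis, KO-labelled minus WT-labelled) of each of the 46 Rab family genes (y axis, grouped by compartment); bars are the SE of the edgeR fit. Rab38 lies at -8.21 and Rab37 at -4.44, whereas most grey points, which were not called, lie near 0.

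The level rule bears on 3 of these genes. Rab13 reached 1 CPM in KO-labelled libraries only and Rab38 in WT-labelled libraries only, so for both a difference follows from the rule, and Rab36 reached it in 3 KO-labelled and 1 WT-labelled library. Among the other 43 members, which were at or over 1 CPM in every library, 5 rose and 8 fell, together 30.2%, beside 27.3% of all genes. The groups did not overlap for 25 of these 43 (58.1%, against 47.6% of all genes). The value that decides the rule, the level of the third-highest library before TMM scaling, was 1.52 CPM for Rab36 and 2.06 CPM for Rab13, just inside, and 0.31 CPM for Rab3c and 0.29 CPM for Rab25, just outside. The 14 symbols below the level were Rab40b, Rab15, Rab3c, Rab26, Rab27b, Rab25, Rab3b, Rab42, Rab30, Rab4a, Rab39, Rab33a, Rab39b and Rab9b. Of these, Rab9b had no read, which with a floor of 3 counts allows up to 0.12 to 0.19 CPM per library. Rab27b, the close relative of Rab27a, had 21, 3 and 0 reads in the WT-labelled and 0 reads in the KO-labelled libraries. Rab29 stands in the table under its older name Rab7l1, which the rule does not match; it had 20.5 ± 2.41 and 28.4 ± 4.06 CPM (SD, n = 3 libraries; edgeR adjusted p = 0.074).

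**Figure D2:**
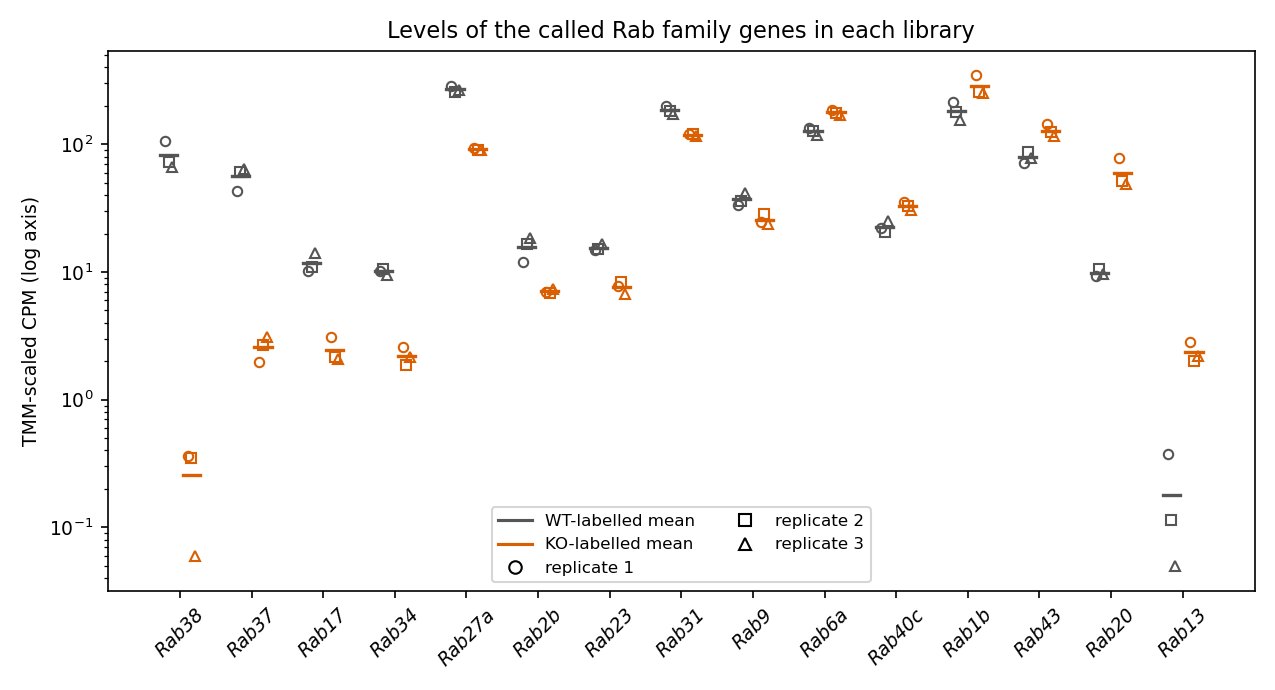
TMM-scaled CPM (y axis, log scale) of the 15 called Rab family genes (x axis, in order of fold change) in each library; symbols are replicates and lines group means. The 3 KO-labelled values lie apart from the 3 WT-labelled values for every gene shown, from Rab38 at the left to Rab13 at the right. The genes were chosen by their calls in these same libraries, so such separation is favoured for all 15. For Rab38 and Rab13 it follows from the level rule.

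The promoter windows of Rab20, Rab27a, Rab34 and Rab17 are shown because these genes had called changes of close to 3-fold or more, were not placed by the level rule, and are held in the RefSeq promoter table (build GRCm38.p6). That table matched 40 of the 46 members, 13 of them called. Each window runs from 250 bases before to 50 bases after an annotated start, 5′ to 3′ on the strand of the gene. Capitals mark matches, on either strand, to any of 5 motifs: the E-box CACGTG, the AP-1 motif TGANTCA, the ETS motif GAGGAAGT, the C/EBP motif TTGCNNAA and the κB motif of NF-κB. A match of one can overlap a match of another.
Rab20 (chr8:11478591-11478890, minus strand): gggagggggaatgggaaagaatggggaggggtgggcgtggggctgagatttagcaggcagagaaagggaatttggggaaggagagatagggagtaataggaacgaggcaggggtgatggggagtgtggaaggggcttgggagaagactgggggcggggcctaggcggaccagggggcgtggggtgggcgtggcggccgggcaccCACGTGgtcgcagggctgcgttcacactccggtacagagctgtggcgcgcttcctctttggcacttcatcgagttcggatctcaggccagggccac
Rab27a, upstream start (chr9:73044560-73044859, plus strand): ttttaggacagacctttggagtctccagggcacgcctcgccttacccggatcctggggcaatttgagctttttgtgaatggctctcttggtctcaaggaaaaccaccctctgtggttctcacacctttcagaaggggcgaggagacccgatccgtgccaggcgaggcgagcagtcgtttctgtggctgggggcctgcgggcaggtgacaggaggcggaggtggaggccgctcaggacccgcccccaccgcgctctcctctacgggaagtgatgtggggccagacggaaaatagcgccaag
Rab27a, downstream start (chr9:73063898-73064197, plus strand): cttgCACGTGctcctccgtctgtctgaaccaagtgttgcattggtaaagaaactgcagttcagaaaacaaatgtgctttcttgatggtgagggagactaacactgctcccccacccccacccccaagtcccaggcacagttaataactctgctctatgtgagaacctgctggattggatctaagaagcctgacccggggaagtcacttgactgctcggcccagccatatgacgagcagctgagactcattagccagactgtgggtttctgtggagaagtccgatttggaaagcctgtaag
Rab34, upstream start (chr11:78188177-78188476, plus strand): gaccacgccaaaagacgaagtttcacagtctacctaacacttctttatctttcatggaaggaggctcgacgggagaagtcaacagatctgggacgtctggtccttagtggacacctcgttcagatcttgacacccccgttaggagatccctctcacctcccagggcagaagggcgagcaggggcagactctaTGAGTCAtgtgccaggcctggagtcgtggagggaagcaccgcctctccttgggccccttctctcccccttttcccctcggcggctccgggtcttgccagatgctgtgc
Rab17 (chr1:90967618-90967917, minus strand): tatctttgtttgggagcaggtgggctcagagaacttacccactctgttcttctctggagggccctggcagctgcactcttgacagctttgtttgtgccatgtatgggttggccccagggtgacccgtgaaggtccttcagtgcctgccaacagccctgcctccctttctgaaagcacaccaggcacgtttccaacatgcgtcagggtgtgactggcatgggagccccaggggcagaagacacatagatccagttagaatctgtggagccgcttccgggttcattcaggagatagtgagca
The Rab20 window held an E-box that begins at position -46 relative to the start, the downstream Rab27a window one at -246, and the upstream Rab34 window an AP-1 match at -58. A second Rab34 window, at a downstream start, held none of the 5 motifs and is not shown. The 40 members had 49 windows. A member was counted if any of its windows matched, so counts of members and shares of windows are unlike units. The E-box occurred in 6 of 40 members (3 of 13 called) and in 7.15% of 32851 windows of this length, and the κB motif in 2 of 40 (0 of 13 called) and in 8.46%. The AP-1 motif was in 1 member and 7.81% of windows, the ETS motif in 2 and 3.20%, and the C/EBP motif in 2 and 10.8%. A match is a string of letters in the window and shows no binding.

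Among the 12 Rabs of the endoplasmic reticulum and Golgi, 3 rose and 2 fell. Rab34, which acts at the Golgi and in macropinosome formation, fell from 10.2, 10.6 and 9.48 CPM to 2.57, 1.86 and 2.15 CPM. The groups lay far apart relative to their spread (log2 fold change -2.20, SE 0.23; edgeR adjusted p = 8.30e-04). Rab34 lies on chromosome 11 at 78188430 to 78192193 of mm10. Rab2b, a Rab of traffic between the endoplasmic reticulum and Golgi, fell from 11.9, 16.7 and 18.4 CPM to 6.94, 6.88 and 7.34 CPM (log2 fold change -1.15, SE 0.21; edgeR adjusted p = 0.0080). Its more abundant relative Rab2a had 214, 220 and 192 CPM and then 169, 167 and 162 CPM, which did not pass (edgeR adjusted p = 0.074) but did by DESeq2 (0.024), without WT-labelled replicate 1 (edgeR, 0.048) and in replicates 2 and 3 alone (0.016). Rab2b made up 3.74 ± 0.96% of the pair per kilobase of exon in WT-labelled and 2.13 ± 0.12% in KO-labelled libraries (SD, n = 3).

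The Golgi members that rose changed by less than 2-fold. Rab43, a Golgi Rab also tied to cross-presentation, rose from 71.2, 87.3 and 78.1 CPM to 145, 124 and 115 CPM (log2 fold change 0.70, SE 0.14; edgeR adjusted p = 0.011). Rab6a, which directs transport within and out of the Golgi, rose from 134, 127 and 118 CPM to 187, 177 and 169.6 CPM (0.49, SE 0.11; edgeR adjusted p = 0.019). Rab1b, which controls vesicle entry into the Golgi, rose from 213, 179.6 and 154 CPM to 347, 255 and 252 CPM (0.64, SE 0.19; edgeR adjusted p = 0.044). KO-labelled replicate 1 was the highest library for each of the 3 genes. Rab1b and Rab6a lost their calls without any single library other than WT-labelled replicate 1, at edgeR adjusted p from 0.079 to 0.13 for Rab1b and from 0.052 to 0.087 for Rab6a. Rab1, the mouse symbol for Rab1a, went from 186 ± 9.07 to 213 ± 17.8 CPM (SD, n = 3; edgeR adjusted p = 0.28). The other members, Rab6b, Rab18, Rab19, Rab33b and Rab36, did not pass, and the last had a mean of 0.76 against 1.64 CPM.

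Counting bears on several of these values, since no strand setting was named. Of the annotated exon sequence of Rab2b 64.0% overlapped Tox4 and Gm43766 on the opposite strand, of Rab6a 19.0% (Mrpl48) and of Rab24 62.4% (Prelid1). Tox4 had a log2 fold change of 0.06 and Mrpl48 of 0.10 (edgeR adjusted p = 0.72 and 0.67), and neither was called; the share of each gene in the Rab2b overlap was not measured. For Rab43, 74.8% of the 31-base words of its transcripts also occurred in the overlapping gene model Gm45140, and for Rab4b 62.6% in other genes, among them Gm21983, so their counts are uncertain. In every other member but Rab20, described below, each of these shares was under 20%.

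In the early endosome and phagosome group of 8 genes, Rab20 rose, Rab17 and Rab31 fell, and 5 did not pass. Rab20, a Rab of phagosomes and macropinosomes, rose from 9.35, 10.5 and 9.68 CPM to 77.5, 51.4 and 49.0 CPM. The lowest KO-labelled value lay far above the highest WT-labelled one, and the ratio of means was 6.02-fold (log2 fold change 2.59, SE 0.21; edgeR adjusted p = 2.58e-04). Its call held in all 15 alternative analyses, with log2 fold changes from 2.30 to 2.75. Rab20 lies on chromosome 8 at 11453518 to 11478710 of mm10, and 25.6% of its exon sequence overlaps an antisense gene, E230013L22Rik, which was not analysed here.

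Rab17, best known from epithelial endosomes, fell from 10.1, 10.97 and 14.2 CPM to 3.11, 2.16 and 2.09 CPM (log2 fold change -2.25, SE 0.27; edgeR adjusted p = 0.0013). Rab31, which works between the trans-Golgi network and early endosomes, fell from 201, 182 and 172 CPM to 119.5, 119.3 and 115 CPM (-0.65, SE 0.12; edgeR adjusted p = 0.0067). The Rab31 groups were tight and did not overlap, although the change was 1.57-fold. The Rab5 genes encode the core GTPases of the early endosome. None of them passed: Rab5a had 57.0 ± 6.59 and 48.8 ± 3.95 CPM, Rab5b 102 ± 3.64 and 130.3 ± 46.3 CPM, and Rab5c 250 ± 24.96 and 281 ± 25.7 CPM (SD, n = 3; edgeR adjusted p = 0.26, 0.32 and 0.41). In replicates 2 and 3 alone Rab5a was called lower (log2 fold change -0.40, edgeR adjusted p = 0.006). The spread of Rab5b came from KO-labelled replicate 1 at 184 CPM, while the other KO-labelled libraries had 104 and 103 CPM. Rab22a (39.8 and 52.1 CPM) and Rab21 (63.9 and 63.6 CPM), both of endocytic sorting, did not pass either; Rab22a was called higher without WT-labelled replicate 1 (edgeR adjusted p = 0.045) and in replicates 2 and 3 alone (0.040).

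Of 9 Rabs of recycling endosomes and delivery to the surface, 1 was called, beside 27.3% of all genes. That call was Rab13, a Rab of junctional and surface transport, which had 9, 2 and 1 reads under the WT label and 63, 46 and 37 reads under the KO label. In CPM this was 0.38, 0.11 and 0.050 against 2.84, 1.99 and 2.21 (log2 fold change 3.60, SE 0.65; edgeR adjusted p = 0.0071). It was the least abundant called member and passed the level rule through the KO-labelled libraries only. The other 8 genes had log2 fold changes between -0.26 (Rab10) and 0.31 (Rab4b). Rab11a, the main GTPase of the recycling endosome, had 75.9, 90.8 and 66.6 CPM and then 75.6, 58.6 and 61.7 CPM, so the groups overlapped. Rab11b followed the replicate number in place of the label, with 125, 59.6 and 61.6 CPM under the WT label and 130.4, 60.8 and 58.6 CPM under the KO label. Rab8a (163 and 151 CPM), Rab8b (88.7 and 108 CPM), Rab14 (134 and 163 CPM) and Rab35 (75.3 and 83.6 CPM) differed by at most 1.22-fold.

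The largest change of the family was in Rab38, which together with Rab32 serves the building of lysosome-related organelles such as melanosomes and platelet dense granules. Rab38 fell from 107, 72.2 and 66.8 CPM to 0.36, 0.35 and 0.060 CPM, the latter resting on 8, 8 and 1 reads. The ratio of means was 321-fold (log2 fold change -8.21, SE 0.42; edgeR adjusted p = 5.30e-05), and the log2 fold change ranged from -8.48 to -7.83 over the alternatives. Since Rab38 met the level rule through the WT-labelled libraries only, that it differs follows from the rule, and these values describe its size. Rab38 lies on chromosome 7 at 88430273 to 88491572 of mm10, and none of its 31-base words occurred in another gene. Rab32 had 76.4, 67.7 and 70.0 CPM and then 99.8, 86.6 and 80.2 CPM; the groups did not overlap, but the gene did not pass (log2 fold change 0.32, SE 0.13; edgeR adjusted p = 0.11), while it did without WT-labelled replicate 1 (0.37; 0.042) and in replicates 2 and 3 alone (0.26; 0.030). Per kilobase of exon, Rab38 therefore made up 62.4 ± 4.53% of the pair in WT-labelled and 0.41 ± 0.26% in KO-labelled libraries (SD, n = 3). The summed level of the pair was lower by 1.11 on the log2 scale in the KO-labelled group.

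Markers of platelet-forming cells moved in the same direction as Rab38. Of 6 megakaryocyte marker genes, 3 could be tested and all 3 fell, and their summed level was 27.6 to 41.3 CPM in WT-labelled and 0.90 to 1.13 CPM in KO-labelled libraries, most of it from Itga2b. Gp1bb, which marks the same lineage, was at 0 to 0.63 CPM. The part of such cells in the Rab38 difference was not tested. The genes of BLOC-3, the exchange factor of Rab32 and Rab38, were not called: Hps1 had 71.3 ± 3.89 and 71.4 ± 8.31 CPM and Hps4 24.5 ± 3.59 and 33.6 ± 1.13 CPM (SD, n = 3; edgeR adjusted p = 0.99 and 0.058). Their effector gene Ankrd27 had 67.3 and 57.4 CPM (edgeR adjusted p = 0.36).

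Of the other 5 late endosome, lysosome and autophagy genes, Rab9 fell. Rab9, which returns receptors from late endosomes to the Golgi and is the single member on chromosome X, went from 33.3, 35.8 and 41.9 CPM to 24.5, 28.4 and 23.6 CPM (log2 fold change -0.54, SE 0.15; edgeR adjusted p = 0.033). Leaving out any library other than WT-labelled replicate 1 ended this call (edgeR adjusted p = 0.074 to 0.14). Rab7, the central GTPase of late endosomes and lysosomes, had 192, 153 and 149 CPM and then 241, 203 and 198 CPM; the groups did not overlap and the gene did not pass (0.38, SE 0.15; edgeR adjusted p = 0.11). Without WT-labelled replicate 1 it was called higher (0.51; edgeR adjusted p = 0.014), as in replicates 2 and 3 alone (0.40; 0.0031). Rab24, linked to autophagy, and Rab12, which sends recycling receptors to lysosomes, were both low in WT-labelled replicate 1. Rab12 had 16.2, 30.1 and 31.5 CPM and then 22.5, 21.3 and 23.0 CPM. It did not pass over all libraries (log2 fold change -0.22; edgeR adjusted p = 0.57) but was called lower without WT-labelled replicate 1 (-0.46; 0.014) and in replicates 2 and 3 alone (-0.50; 0.0066). Rab24 had 51.6, 104 and 94.2 CPM and then 95.7, 78.2 and 83.1 CPM. Its log2 fold change was 0.04 over all libraries and -0.32 in replicates 2 and 3 alone, where it was called lower (edgeR adjusted p = 0.019).

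Regulated secretion held 5 members, of which Rab37 and Rab27a fell and Rab3a, Rab3d and Rab44 did not pass. Rab37, a Rab of secretory granules first described in mast cells, fell from 43.1, 60.5 and 64.4 CPM to 1.98, 2.68 and 3.10 CPM. That is a 21.6-fold ratio of means (log2 fold change -4.44, SE 0.25; edgeR adjusted p = 7.83e-05), and it was -4.44 in the replicate 1 pair and -4.43 in replicates 2 and 3. Rab37 lies on chromosome 11 at 115091431 to 115162236 of mm10. Rab27a, which docks granules of cytotoxic cells and neutrophils at the plasma membrane, fell from 285, 257 and 265 CPM to 93.5, 90.9 and 91.0 CPM. The 3 values of each group lay within a narrow band and the ratio of means was 2.93-fold (log2 fold change -1.55, SE 0.11; edgeR adjusted p = 1.68e-04). Its locus is chromosome 9 at 73044854 to 73097629. Both calls held in all 15 alternatives.

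Rab44, a large Rab with calcium-binding motifs found in granulocytes and mast cells, was among the most abundant members. It had 256, 516 and 534 CPM and then 396, 530.0 and 551 CPM, so both first replicates were the lowest of their group and the groups overlapped (edgeR adjusted p = 0.71). Rab3d, of secretory granules, had 42.2, 54.3 and 57.2 CPM and then 72.6, 59.4 and 58.0 CPM (edgeR adjusted p = 0.21), and Rab3a, the synaptic vesicle Rab, stayed between 1.88 and 3.56 CPM. Markers of mast cells and basophils were lower in the same libraries as Rab37 and Rab27a: of 10 genes, 4 could be tested, 0 rose and 2 fell, and their sum was 82.0 to 156 CPM in WT-labelled and 16.6 to 18.3 CPM in KO-labelled libraries. Most of it was Gata2, which progenitors also express, while Fcer1a, Tpsb2, Tpsab1 and Cma1 had no read in any library. The part of these cells in the falls of Rab37 and Rab27a was not tested.

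**Figure D3:**
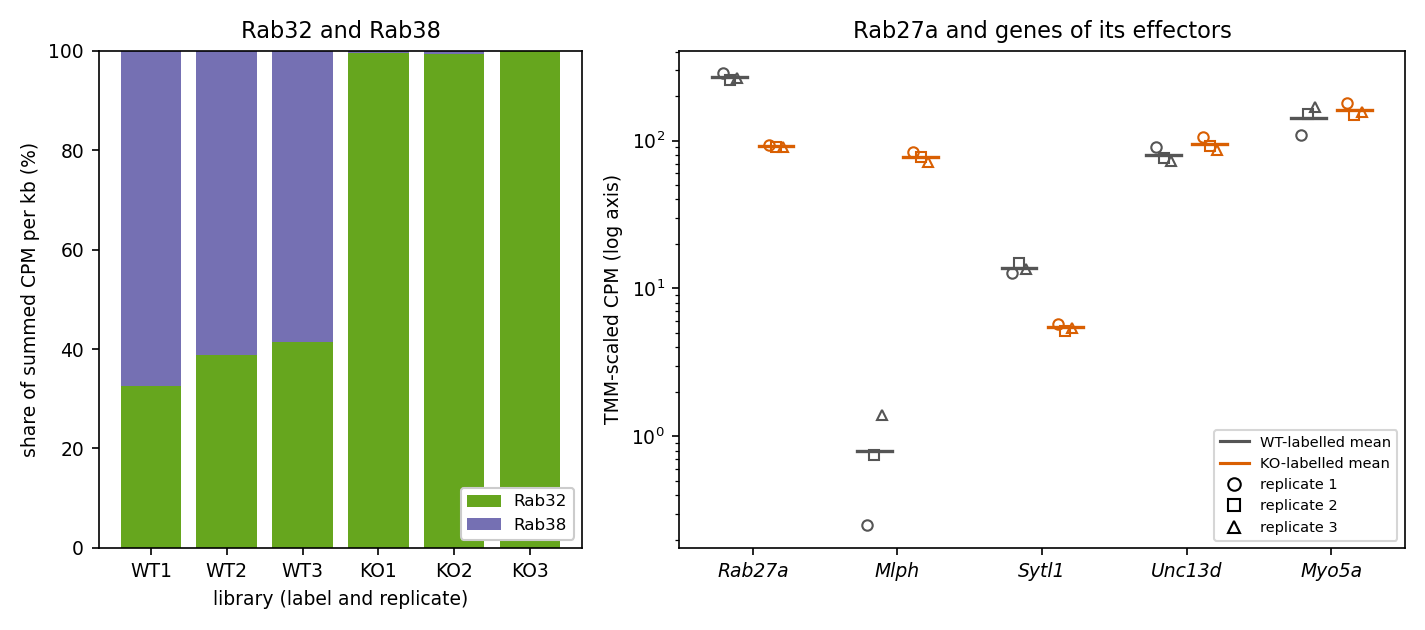
Left, share (y axis, %) of Rab32 and Rab38 in their summed CPM per kilobase of exon in each library (x axis); right, TMM-scaled CPM (y axis, log scale) of Rab27a and 4 genes of its effectors in each library, with lines at group means. Rab38 holds 58.6 to 67.4% in the WT-labelled libraries and under 1% in the KO-labelled ones, and Mlph lies above its WT-labelled values where Rab27a lies below.

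Genes of Rab27a effectors did not all follow it. Mlph encodes melanophilin, which links Rab27a to the motor myosin Va. It rose from 0.25, 0.75 and 1.39 CPM to 83.4, 78.0 and 71.7 CPM (log2 fold change 6.63, SE 0.47; edgeR adjusted p = 1.52e-04), with log2 fold changes from 6.08 to 7.35 over the 15 alternatives. Sytl1, a synaptotagmin-like effector of Rab27a, fell from 12.8, 14.8 and 13.5 CPM to 5.77, 5.19 and 5.43 CPM (-1.32, SE 0.18; edgeR adjusted p = 0.0022). With replicates 2 and 3 summed, Sytl1 did not pass (edgeR adjusted p = 0.067). Unc13d and Myo5a, chosen after their values were seen, encode Munc13-4, which primes granules for fusion, and myosin Va. Unc13d had 79.5 ± 9.44 and 94.8 ± 10.4 CPM and Myo5a 143 ± 30.3 and 162 ± 15.2 CPM (SD, n = 3; edgeR adjusted p = 0.23 and 0.51). Thus the granule Rab was lower, one of its effector genes was higher, one was lower, and these further genes did not pass.

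Among the 6 members tied to cilia or of atypical function, Rab23 fell and Rab40c rose. Rab23, an antagonist of Hedgehog signalling, went from 14.8, 15.0 and 16.5 CPM to 7.71, 8.36 and 6.68 CPM (log2 fold change -1.03, SE 0.17; edgeR adjusted p = 0.0057). Rab40c, which carries a SOCS box that recruits a ubiquitin ligase, went from 22.1, 20.6 and 25.02 CPM to 35.3, 32.8 and 30.5 CPM (0.54, SE 0.14; edgeR adjusted p = 0.026). The groups did not overlap for either gene. Rab40c lost its call without WT-labelled replicate 2 or any of the KO-labelled libraries (edgeR adjusted p = 0.070 to 0.10). Rab28, Rabl2, Rabl3 and Rabl6 had log2 fold changes from -0.04 to 0.28 and did not pass.

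The regulators and effectors that surround the Rabs are given in 5 lists, to be read beside the 13.7% of all genes called in each direction. Of 152 tested genes, 23 rose, 27 fell and 102 did not pass, with a median log2 fold change of 0.03, beside -0.04 for all genes. The prenylation and recycling machinery had 2 higher and 2 lower of 9. Chml, a Rab escort protein gene that presents Rabs for lipid attachment, fell from 29.0 ± 8.08 to a mean of 11.004 ± 2.07 CPM, and Rabggta, a subunit of the enzyme that attaches the lipid, rose from 22.2 ± 2.33 to 36.9 ± 3.94 CPM (SD, n = 3; edgeR adjusted p = 0.0082 and 0.011). Arl6ip5, of the prenylated Rab acceptor family, fell from 73.1 to 48.1 CPM, and Rabif, a nucleotide exchange chaperone, rose from 30.5 to 42.1 CPM (edgeR adjusted p = 0.025 and 0.045). The calls of Arl6ip5 and Rabif were lost without any single library except WT-labelled replicate 1 (adjusted p = 0.056 to 0.15), and Rabggta lost its call without KO-labelled replicate 2 (0.063). With replicates 2 and 3 summed, Chml, Rabggta, Arl6ip5 and Rabif did not pass (edgeR adjusted p = 0.093 to 0.25). Gdi2, the most abundant GDP dissociation inhibitor gene, had 473 ± 14.2 and 444 ± 6.68 CPM (edgeR adjusted p = 0.64).

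Of 51 tested exchange factor genes, 7 rose and 10 fell. Rin3, which activates the Rab5 and Rab31 proteins, fell from 151, 143 and 151 CPM to 68.1, 74.8 and 75.0 CPM (log2 fold change -1.03, SE 0.11, edgeR adjusted p = 7.96e-04). Rab31 fell too, and a link between these falls was not tested. Als2cl, a relative of the Rab5 exchange factor alsin, fell from 6.39 ± 2.11 to 0.45 ± 0.21 CPM. Dennd4c, which acts on Rab10, fell from 62.9 ± 2.89 to 37.4 ± 2.79 CPM, and Sbf2, of the myotubularin-related DENN proteins, from 9.34 ± 1.602 to 2.63 ± 0.54 CPM (SD, n = 3; edgeR adjusted p = 0.0016 to 0.0040 for these 3 genes). Of 33 TBC-domain GAP genes, 3 rose and 9 fell. Tbc1d4, the GAP of GLUT4 storage vesicles, fell from 35.8 ± 9.82 to 6.41 ± 1.34 CPM, Tbc1d10c, a hematopoietic GAP, from 37.1 ± 8.52 to 12.3 ± 1.33 CPM and Tbc1d2, a Rab7 GAP, from 72.2 ± 2.64 to 38.8 ± 5.74 CPM, whereas Tbc1d30 rose from 2.60 ± 0.34 to 8.76 ± 1.16 CPM (SD, n = 3; edgeR adjusted p = 9.53e-04 to 0.0040). None of these 8 calls was lost when a single library was left out, but with replicates 2 and 3 summed Sbf2, Dennd4c, Tbc1d30 and Tbc1d2 did not pass (edgeR adjusted p = 0.051 to 0.092).

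Effector genes had 7 higher and 5 lower of 38 tested. Bicd1, an adaptor that links Rab6 vesicles to dynein, fell from 20.9, 26.4 and 21.3 CPM to 0, 0.13 and 0.060 CPM (log2 fold change -8.34, SE 0.52; edgeR adjusted p = 9.70e-05). Rab6a, its partner, had risen in the same libraries, and Bicd2 was not called (edgeR adjusted p = 0.90). Rilpl2, a RILP-like adaptor, rose from 38.3, 47.9 and 41.3 CPM to 139, 109.9 and 110.4 CPM (1.49, SE 0.15; edgeR adjusted p = 6.84e-04). Tethering complexes and retromer had 4 higher and 1 lower of 21. Vps11, a core subunit of the HOPS and CORVET tethers, rose from 52.2 ± 9.07 to 97.2 ± 13.4 CPM (SD, n = 3; edgeR adjusted p = 0.0086). With replicates 2 and 3 summed, Vps11 did not pass (edgeR adjusted p = 0.059). Vps8 of CORVET (24.2 to 35.0 CPM) and Exoc3 of the exocyst (40.1 to 56.8 CPM) were called higher and Vps26b of retromer (87.3 to 65.8 CPM) lower, and all 3 calls were lost without any single library except WT-labelled replicate 1 (adjusted p = 0.057 to 0.13).

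Per kilobase of exon, the order of levels among the members was led by Rab5c in both groups, at 114 CPM per kb in WT-labelled and 128 CPM per kb in KO-labelled libraries. In the WT-labelled libraries it was followed by Rab2a (97.7), Rab44 (86.0), Rab1b (80.2), Rab27a (69.3) and Rab7 (63.0). In the KO-labelled libraries the order was Rab1b (125), Rab44 (97.2), Rab7 (82.1), Rab2a (77.8) and Rab1 (56.1), while Rab27a stood at 23.7. Whether neighbours in either order differed was not tested. Rab5c, Rab44, Rab7 and Rabl6 (15.9 and 18.1 CPM per kb) had the highest mean of the early endosome, secretion, late endosome and atypical genes in both groups, and none of these 4 was called. Among Golgi genes the highest mean was that of Rab2a under the WT label and of Rab1b under the KO label. Among recycling genes it was that of Rab10 (37.6, against 34.8 for Rab8a) and then of Rab8a (32.2, against 31.4 for Rab10). Rab10, which carries cargo to the surface, had 149, 125 and 123 CPM and then 116, 104 and 110.5 CPM (edgeR adjusted p = 0.18). Rabl6, a large Rab-like protein, had 118, 99.0 and 88.5 CPM and then 109.8, 118.0 and 118.3 CPM (edgeR adjusted p = 0.38). Both Rab10 and Rabl6 were highest in WT-labelled replicate 1 among the libraries of their group.

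**Figure D4:**
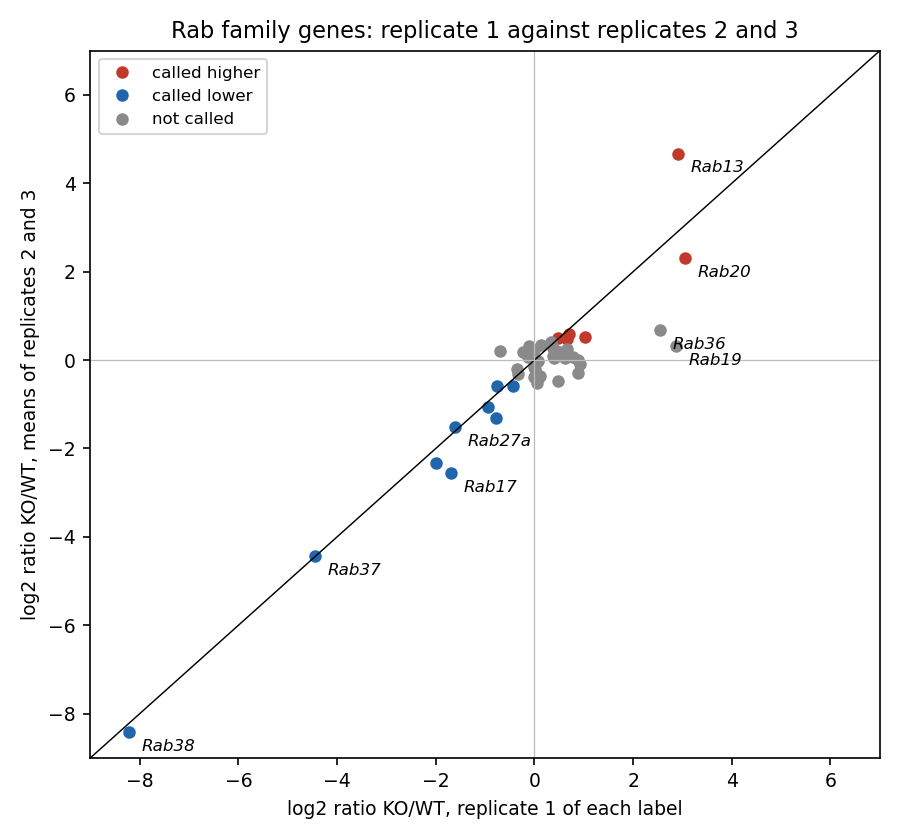
Log2 ratio of KO-labelled to WT-labelled level in replicate 1 (x axis) against that of the means of replicates 2 and 3 (y axis) for the 46 Rab family genes; the diagonal marks equal ratios. The 15 called genes have the same sign on both axes, and Rab19 and Rab36 lie to the right of the diagonal. The groups of each called gene do not overlap, so its shared sign was fixed. For Rab38 and Rab13 the absence of overlap follows from the level rule.

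Because replicate 1 stood apart, the ratio was also taken within it and within replicates 2 and 3. All 15 called genes had the same sign in both, as did 17 of 31 genes that were not called. The groups did not overlap for any of the 15 called genes, nor for 13 of the 31 others. Without overlap the sign must be shared, so for these genes it is no separate support. For Rab38 and Rab13 the absence of overlap itself follows from the level rule. Rab11b was the member at least 2-fold apart in replicate 1 in both groups, at 2.06 and 2.19 times the mean of replicates 2 and 3. In WT-labelled libraries, Rab19, Rab36, Rab13 and Rab44 were also at least 2-fold apart in replicate 1, and in KO-labelled libraries Rab33b was. Rab19, a Golgi Rab with 1.42, 7.58 and 3.77 CPM and then 10.4, 7.84 and 6.27 CPM, had a log2 ratio of 2.87 in replicate 1 and 0.31 in replicates 2 and 3. Rab33b, of Golgi and autophagosome traffic, had 25.5, 17.6 and 15.8 CPM and then 27.7, 12.5 and 13.6 CPM, and 18.7% of its exon sequence overlaps an antisense gene.

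How many Rab genes passed depended on single libraries, as did the number of calls over all genes. Without WT-labelled replicate 1, 10 members were higher (22% of all genes) and 12 lower (20.8%). Leaving out WT-labelled replicate 2 gave 3 and 8 (9.87% and 9.95% of all genes), and leaving out WT-labelled replicate 3 gave 4 and 8 (9.86% and 10.2%). They were 3 and 8 without KO-labelled replicate 1 (8.91% and 9.49%), and likewise without KO-labelled replicate 2 (7.6% and 7.41%) or KO-labelled replicate 3 (7.89% and 7.54%). Replicates 2 and 3 analysed alone gave 11 and 15 (25.8% and 27.1% of all genes), and summed into 1 sample 1 and 5 (4.32% and 4.12%). Between replicates 2 and 3 the chi-square per degree of freedom was only 26.2 (WT label) and 2.43 (KO label). The p-values of that subset alone rest on this smaller spread, which may be technical. With the replicate number as a block 3 rose and 8 fell (8.16% and 8.53%). The counts were 6 and 10 by DESeq2 (17% and 16.7%), 6 and 9 by limma-voom (14.3% and 12.9%), and 6 and 9 without a low-count filter (9.95% and 9.47%). Other scalings gave 6 and 9 with DESeq2 size factors (14% and 13.4%), 6 and 9 with upper-quartile scaling (13.3% and 14.1%), and 6 and 8 with library totals (12.6% and 12.2%). Another 10 members that had not passed, and Rab24 with a changed sign, were called in replicates 2 and 3 alone. Besides Rab24, Rab2a, Rab5a, Rab6b, Rab10 and Rab12 were lower there, and Rab7, Rab22a, Rab28, Rab32 and Rabl6 higher. Rab6b and Rabl6 were also called without WT-labelled replicate 1 (edgeR adjusted p = 0.044 and 0.048). Rab38, Rab37, Rab17, Rab34, Rab27a and Rab20 kept their calls in all 15 alternatives run, Rab13, Rab31, Rab23 and Rab2b in 14 of them. For Rab38 and Rab13 a difference follows from the level rule, so their kept calls do not count as support. All 15 alternatives reuse the same libraries. A kept call of any gene therefore bears on the choice of analysis and on single libraries, not on replication.

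**Figure D5:**
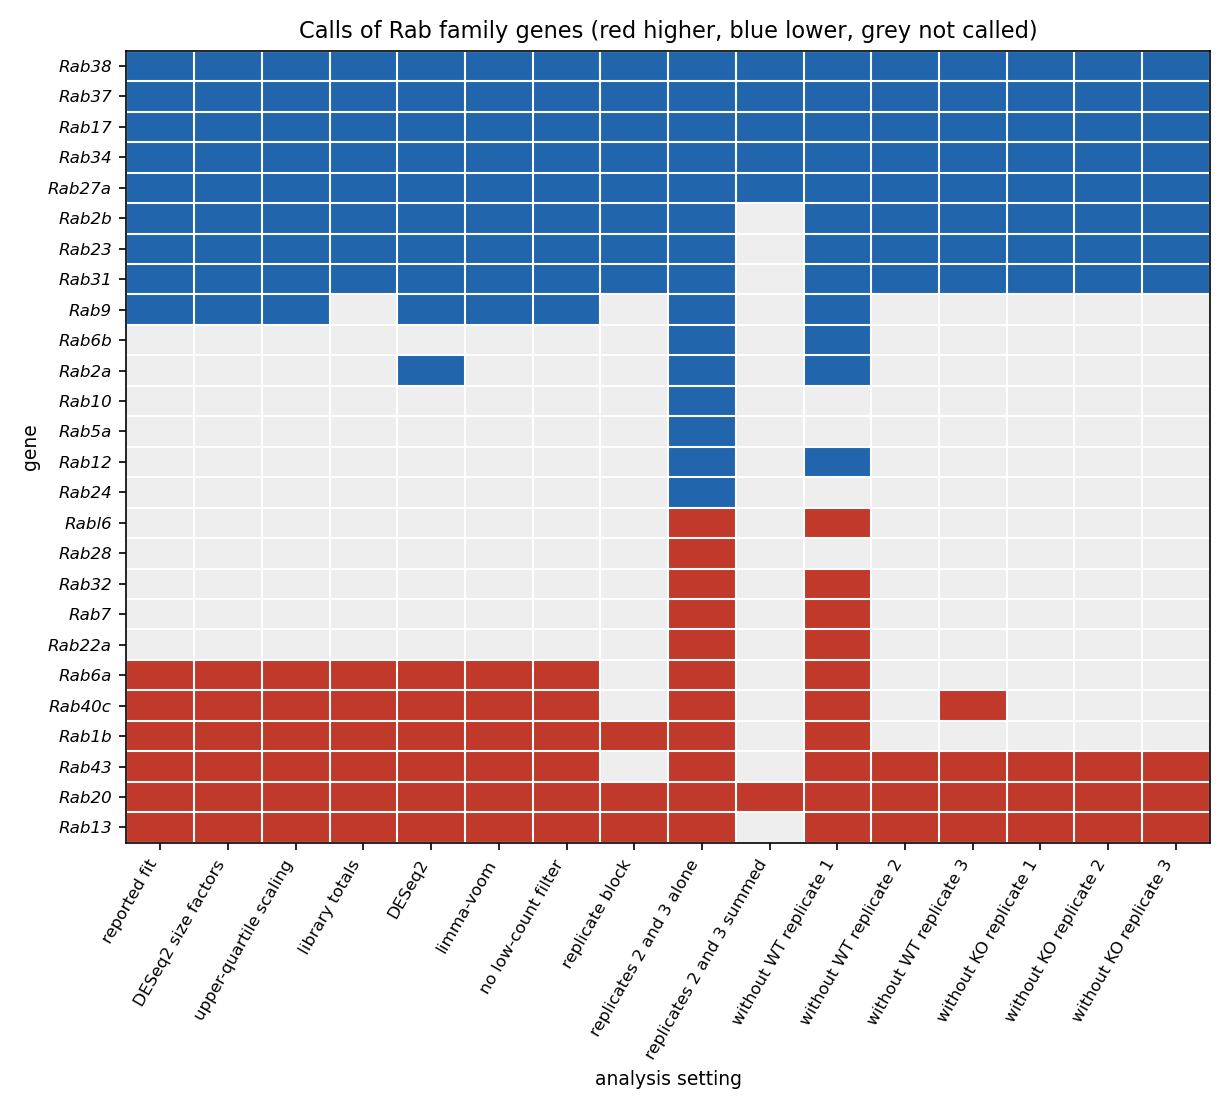
Calls at an adjusted p under 0.05 for the 26 Rab family genes called in at least 1 analysis (y axis, in order of fold change) under the reported fit and 15 alternatives (x axis); red is higher, blue lower, grey not called. The rows of Rab38, Rab37, Rab17, Rab34, Rab27a and Rab20 are filled throughout. For Rab38 a difference follows from the level rule.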

How the data were processed

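Gene-level raw counts were analysed as deposited. Per the submitters' processing notes, the authors used FastQC 0.11.7, HISAT2 2.0.5 and featureCounts 1.5.2 with mm10. Their annotation and strand setting were not given in the sources used here. Per the labels, a stranded mRNA kit was used. The whole table was fitted with edgeR 4.0.16 under R 4.3.3, by the robust quasi-likelihood test with TMM scaling, no covariate and filterByExpr defaults (12126 genes kept), and p-values were adjusted by Benjamini-Hochberg over all of them, with a threshold of 0.05. The fits were also run on simulated data, drawn as independent counts without a shift of replicate 1. That run therefore does not bear on how replicate 1 moved the calls. All 46 members passed the filter. The floor of 3 counts covers counting error only.

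Positions, exon lengths, overlaps and 31-base words came from GENCODE M21 (mm10), where Rab1 was matched as Rab1a. The alternatives comprised 3 other scalings, tests by DESeq2 1.42.0 and by limma 3.58.1 (voom), no low-count filter, a replicate block, replicates 2 and 3 alone or summed, and leaving out each library. Of 165 listed regulators and effectors, 162 were in the table. The members, lists and alternatives were chosen with earlier results of these data known. The text names Tnfaip3, every member, up to 4 called genes per list in order of p, and marker genes; Unc13d, Myo5a, Gdi2, Bicd2, Hps1, Hps4, Ankrd27 and the overlapping genes were added after their values were seen.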

Additional observations from a re-analysis of the deposited data

How the results depend on the processing

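With another scaling (DESeq2 size factors, upper quartile, library totals), DESeq2, limma-voom or no low-count filter, the counts of Rab genes stayed at 6 higher and 8 to 10 lower. With replicates 2 and 3 summed they were 1 and 5, for regulators and effectors 2 and 6, and for all genes 543 and 518; fewer samples enter that fit. In replicates 2 and 3 alone they were 11 and 15, 36 and 50, and 3149 and 3309. Leaving out each library gave 3 to 10 and 8 to 12 for Rab genes, 11 to 32 and 15 to 45 for regulators, and 939 to 2712 and 916 to 2568 for all genes; the cause was not tested. Rab24 changed sign, with -0.32 in replicates 2 and 3 alone.

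The numbers did not pair the libraries over all genes, since deviations of same-numbered libraries correlated at -0.01, -0.06 and 0.05. Some genes followed the number: replicate 1 was 15.2 and 10.8 times replicates 2 and 3 for Gapdh, and 2.06 and 2.19 times for Rab11b (WT label, KO label). A fit with the replicate block gave 3 higher and 8 lower Rab genes, 13 and 17 regulators, and 989 and 1034 genes in all; among Rab genes Rab43 (adjusted p = 0.0502), Rab6a, Rab40c and Rab9 did not pass. Genes with few reads, such as Rab13 and Rab36, limit the precision of their fold changes.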
